A study of Mus musculus with 10 samples.

Results

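The guanylate-binding proteins (GBPs) and immunity-related GTPases (IRGs) were followed in the livers of germ-free (GF) mice that had been dosed with vesicles shed by gut bacteria. The 10 members were taken by symbol, 6 GBPs (*Gbp2*, *Gbp2b*, *Gbp3*, *Gbp5*, *Gbp6* and *Gbp7*) and 4 IRGs (*Igtp*, *Irgm1*, *Irgm2* and *Iigp1*), and all 10 were among the 12147 genes tested. The mice were C57BL6 animals without a microbiota. In the GF+MEV group, 5 mice received 80 µg of microbiota-derived extracellular vesicles (MEV) in PBS by mouth, with 2 doses per week for 3 weeks, and in the GF+PBS group 5 mice received PBS alone on that schedule. The MEV had been purified from the gut contents of conventionally colonised control mice, so the doses were a mixture from many bacteria, and age and sex of the GF mice were not given in the sources used here. RNA came from whole liver, which mixes hepatocytes with Kupffer cells, sinusoidal endothelium and lymphocytes, so fewer cells of a type and less RNA per cell cannot be told apart in any result below.

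GBPs and IRGs are large GTPases that cells make after exposure to interferons, above all interferon gamma. Interferon gamma binds the receptor chains IFNGR1 and IFNGR2, the kinases JAK1 and JAK2 relay the signal, and primary targets are switched on, among them the transcription factor IRF1, which acts on many GTPase genes. GBPs assemble as coats on bacteria, on lipopolysaccharide and on the vacuoles of intracellular parasites, and help to open them and to engage the caspase-11 inflammasome. IRGs act on the same vacuoles, where effectors such as Iigp1 (Irga6) load onto the membrane, while Irgm1, Irgm2 and Igtp (Irgm3) are regulators that sit on host membranes and hold the effectors inactive there.

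The promoters of the members were searched for the elements of this pathway. The gamma-activated site (GAS) is an element of interferon gamma target promoters, searched here as TTCNNNGAA, and IRF factors bind the interferon-stimulated response element (ISRE), whose core was searched as GAAA, any 2 bases and GAAA again, each on both strands. RefSeq promoter sequence (250 bases before to 50 after a transcript start, build GRCm38.p6) was matched for 8 of the 10 members, in 9 windows since *Gbp3* has 2 starts, and *Gbp6* and *Iigp1* were not matched. The ISRE core was present in 8 of the 9 windows, against 3.44% of 32851 mouse promoters of that length, and the GAS element in 4 (*Gbp5*, *Gbp7*, *Igtp* and *Irgm2*), against 8.3%. Only 0.454% of all promoters held both. A match is a run of letters and was not tested as a binding site. The stretches that hold the matches follow, 5′ to 3′ on the strand of the gene, with every match in capitals, for 7 members on chromosomes 3 and 11, to show how the elements are arranged. The stretches of *Gbp5* are not shown here.
Gbp2b, chr3:142594695-142594734, plus strand: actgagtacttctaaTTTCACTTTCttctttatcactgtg
Gbp2, chr3:142620589-142620628, plus strand: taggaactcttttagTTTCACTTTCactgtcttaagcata
Gbp3, chr3:142559984-142560029, plus strand: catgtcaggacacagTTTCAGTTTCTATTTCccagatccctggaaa
Gbp7, chr3:142530215-142530307, plus strand: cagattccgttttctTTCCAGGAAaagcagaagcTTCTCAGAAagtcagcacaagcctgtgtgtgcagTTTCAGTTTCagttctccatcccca
Igtp, chr11:58199496-58199546, plus strand: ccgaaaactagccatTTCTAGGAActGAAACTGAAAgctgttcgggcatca
Irgm2, chr11:58214887-58214937, plus strand: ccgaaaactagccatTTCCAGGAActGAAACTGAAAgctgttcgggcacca
Irgm1, chr11:48871421-48871465, minus strand: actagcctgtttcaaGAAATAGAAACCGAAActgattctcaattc
In *Igtp* and *Irgm2* the GAS element and the ISRE core stood side by side, separated by the same pair of bases. *Gbp7* had 2 GAS matches and 1 ISRE core. *Gbp3* and *Irgm1* each had a pair of overlapping ISRE cores, which appear as TTTC repeats where the match is on the other strand, and *Gbp2* and *Gbp2b* had 1 core each.

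**Figure D1:**
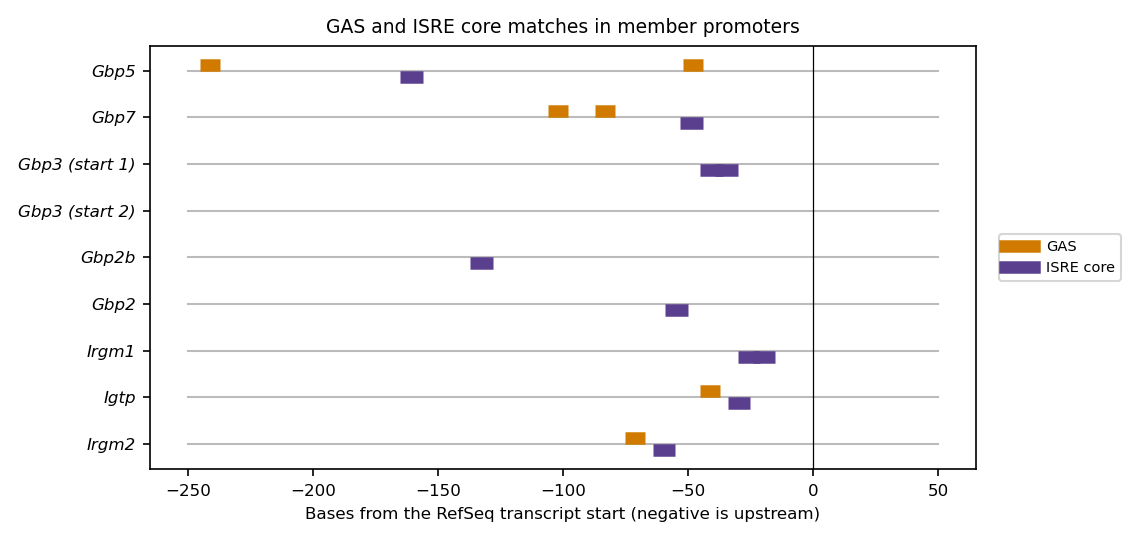
Positions of GAS matches (orange) and ISRE core matches (purple) in the 9 RefSeq promoter windows of 8 members, in bases from the transcript start (0, black line). Every match lay upstream of the start, and 8 of the 9 windows held an ISRE core.

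The authors deposited raw read counts per gene, and libraries held between 15746119 and 20523649 counts. The 10 members together drew 5745 to 13377 counts per library. Values below are CPM, a count scaled to the size of its library by the TMM method, and livers are listed by replicate number within a group. The number of a mouse in one group has no partner in the other. The tissue label was checked on 9 hepatocyte markers, albumin included, which summed to 105764 to 124168 CPM in the GF+MEV livers and 108072 to 123929 CPM in the GF+PBS livers. The 5 mice of a group were taken as separate samples, but 2 pairs of GF+PBS livers were more alike than the other GF+PBS pairs. Over the 300 genes that varied most among GF+MEV livers, the root mean square difference was 0.494 on the log2 scale between GF+PBS replicates 1 and 3 and 0.427 between replicates 4 and 5, while it was 0.647 to 0.851 for the other GF+PBS pairs. The counts of members called are therefore also given with each alike pair summed into 1 sample.

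All 10 members had a lower mean in GF+MEV than in GF+PBS livers, and 5 of them fell (edgeR quasi-likelihood test, Benjamini-Hochberg adjusted p under 0.05 over all tested genes). The 5 were *Gbp2b*, *Gbp6*, *Igtp*, *Irgm1* and *Irgm2*, and no member rose (0 also at an unadjusted p under 0.05, by DESeq2 and by limma-voom). Over all 12147 genes, 428 fell (3.52%) and 500 rose (4.12%), and 51.0% had a log2 fold change under 0. The median log2 fold change was -0.72 over the members and 0.00 over all genes. By family, 2 of 6 GBPs and 3 of 4 IRGs fell. The median log2 fold change was -0.72 over the GBPs and -0.62 over the IRGs, and no difference between the families was tested. The count of 5 became 3 (*Gbp6*, *Igtp* and *Irgm2*) with the alike GF+PBS livers summed, and the number called was sensitive to single livers. It was 2 without GF+MEV replicate 1, 1 without GF+MEV replicate 3, 2 without GF+MEV replicate 5, 2 without GF+PBS replicate 2, 2 without GF+PBS replicate 4 and 3 without GF+PBS replicate 5. The log2 fold changes of all 10 members stayed under 0 in each of these fits, and *Gbp6* was called in every one.

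Of the GBPs, *Gbp6* separated the groups. It encodes a GBP of the chromosome 5 cluster and was measured at 2.26, 3.31, 2.46, 2.98 and 2.57 CPM in GF+MEV and at 4.28, 6.11, 3.33, 6.27 and 6.25 CPM in GF+PBS. Every GF+PBS liver lay above every GF+MEV liver, though GF+PBS replicate 3 did so by a hair, and 3.45% of all tested genes separated the groups in this direction. The mean was 2.72 ± 0.424 CPM (SD, n = 5) against 5.25 ± 1.36 CPM (SD, n = 5), a log2 fold change of -0.96 (95% interval -1.36 to -0.55, edgeR adjusted p = 0.00597). *Gbp6* shares 51.3% of the 100-base stretches of its transcript with other genes, chiefly *Gm43302* and *Gbp10*, and 29.0% of its exon length overlaps *Gm43302* on the same strand, so its counts may have been split with these copies.

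*Gbp2b*, the gene long known as Gbp1 in mice, showed the largest fall among the members. It was measured at 1.28, 1.72, 1.64, 3.48 and 1.35 CPM in GF+MEV and at 2.61, 6.56, 3.33, 3.89 and 3.72 CPM in GF+PBS. GF+MEV replicate 4 reached the level of the lower GF+PBS livers, while the other 4 GF+MEV livers lay below every GF+PBS liver. The log2 fold change was -1.07 (95% interval -1.70 to -0.45, edgeR adjusted p = 0.0367), 2.11-fold higher in GF+PBS, on 21 to 117 counts per library. The call was lost with the alike livers summed (edgeR adjusted p = 0.0651), without GF+MEV replicate 1, 2, 3 or 5 and without GF+PBS replicate 2, 3 or 4, where the edgeR adjusted p reached 0.0891. *Gbp2b* shared no 100-base stretch with another transcript.

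*Gbp2*, which marks bacterial and parasite vacuoles and sits immediately beside *Gbp2b* on chromosome 3, missed the threshold. Its levels were 3.11, 3.31, 4.73, 5.95 and 2.63 CPM in GF+MEV and 5.72, 9.69, 3.51, 6.97 and 7.33 CPM in GF+PBS. GF+PBS replicates 1 and 3 sat inside the GF+MEV range, under GF+MEV replicate 4. Its log2 fold change was -0.74 (95% interval -1.28 to -0.19, edgeR adjusted p = 0.0991). It passed by DESeq2 (adjusted p = 0.0386) and with edgeR without GF+MEV replicate 4 (adjusted p = 0.0442) or without GF+PBS replicate 3 (adjusted p = 0.0308).

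The remaining GBPs also overlapped between the groups. *Gbp3* was measured at 6.04, 8.28, 6.66, 8.98 and 6.10 CPM in GF+MEV and 7.39, 17.1, 7.80, 11.8 and 8.65 CPM in GF+PBS (log2 fold change -0.55, 95% interval -1.01 to -0.09, edgeR adjusted p = 0.145). *Gbp7*, which lies 9877 bases from *Gbp3*, was at 7.81, 11.04, 8.93, 13.9 and 10.7 CPM against 8.88, 23.1, 12.4, 15.5 and 18.6 CPM (log2 fold change -0.58, 95% interval -1.05 to -0.12, edgeR adjusted p = 0.126). Without GF+PBS replicate 1 *Gbp7* passed (edgeR adjusted p = 0.0258). *Gbp5*, a GBP that promotes inflammasome assembly, was the scarcest member with 11 to 50 counts per library, at 0.671, 1.10, 1.06, 1.91 and 1.22 CPM against 0.666, 2.69, 1.61, 2.53 and 2.22 CPM (log2 fold change -0.70, 95% interval -1.42 to 0.03, edgeR adjusted p = 0.254). In all 3 genes GF+PBS replicate 2 was the highest liver and GF+PBS replicate 1 the lowest of its group. *Gbp7* shared 10.2% of its transcript stretches with other genes, mainly the pseudogene *Gm43802*, and *Gbp3* and *Gbp5* under 1%, at 0.929% and 0.273%.

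Among the IRGs, *Igtp* (Irgm3), a regulator on the endoplasmic reticulum and lipid droplets, fell by about as much as *Gbp6*. It was measured at 23, 44.0, 25.5, 37.7 and 25.6 CPM in GF+MEV and 35.8, 89.6, 34.7, 75.3 and 69.4 CPM in GF+PBS. The GF+PBS livers fell into a low pair, replicates 1 and 3, which lay within the GF+MEV range, and 3 livers far above it. Between the groups the log2 fold change was -0.97 (95% interval -1.52 to -0.42, edgeR adjusted p = 0.0316). Without GF+MEV replicate 1, 3 or 5, or GF+PBS replicate 2, 4 or 5, the call was lost and the edgeR adjusted p reached 0.085.

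*Irgm2*, a regulator at the Golgi apparatus, fell in the same manner. Its levels were 40.9, 63.3, 48.3, 69.4 and 49.2 CPM in GF+MEV and 63.7, 129, 66.4, 103 and 107 CPM in GF+PBS. Again GF+PBS replicates 1 and 3 lay inside the GF+MEV range, just under GF+MEV replicate 4. The log2 fold change was -0.79 (95% interval -1.20 to -0.39, edgeR adjusted p = 0.0185), and the adjusted p was 0.0513 without GF+MEV replicate 3. *Igtp* and *Irgm2* overlap on the same strand by 162 exonic bases, 8.01% of the exon length of *Igtp* and 4.39% of that of *Irgm2*, and share 5.67% and 2.48% of their transcript stretches, so a small part of their counts was not independent.

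*Irgm1*, the regulator on Golgi, lysosomal and mitochondrial membranes that takes part in autophagy, fell least of the 5 called members. It was measured at 41.0, 59.5, 45.3, 62.0 and 44.1 CPM in GF+MEV and 56.9, 81.3, 58.1, 71.8 and 76.6 CPM in GF+PBS. GF+MEV replicates 2 and 4 reached into the lower end of the GF+PBS range. The log2 fold change was -0.45 (95% interval -0.73 to -0.18, edgeR adjusted p = 0.0461), 1.37-fold higher in GF+PBS. Like that of *Igtp*, its call was lost without GF+MEV replicate 1, 3 or 5 or GF+PBS replicate 2, 4 or 5 (edgeR adjusted p up to 0.112), and also with the alike livers summed (0.0846).

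*Iigp1* (Irga6), the effector of the set and the member with the most RNA, was not called. It stood at 224, 287, 205, 309 and 280 CPM in GF+MEV and 263, 385, 265, 283 and 321 CPM in GF+PBS. GF+MEV replicates 2, 4 and 5 lay among the GF+PBS livers. Its log2 fold change was -0.22 (95% interval -0.48 to 0.05, edgeR adjusted p = 0.345), and the interval excluded the estimates for *Igtp*, *Gbp6* and *Gbp2b*. The intervals of *Igtp* (up to -0.42) and *Gbp2b* (up to -0.45) overlapped that of *Iigp1*, and no difference between members was tested. *Iigp1* shared no transcript stretch with another gene and had at least 3679 counts in each library.

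**Figure D2:**
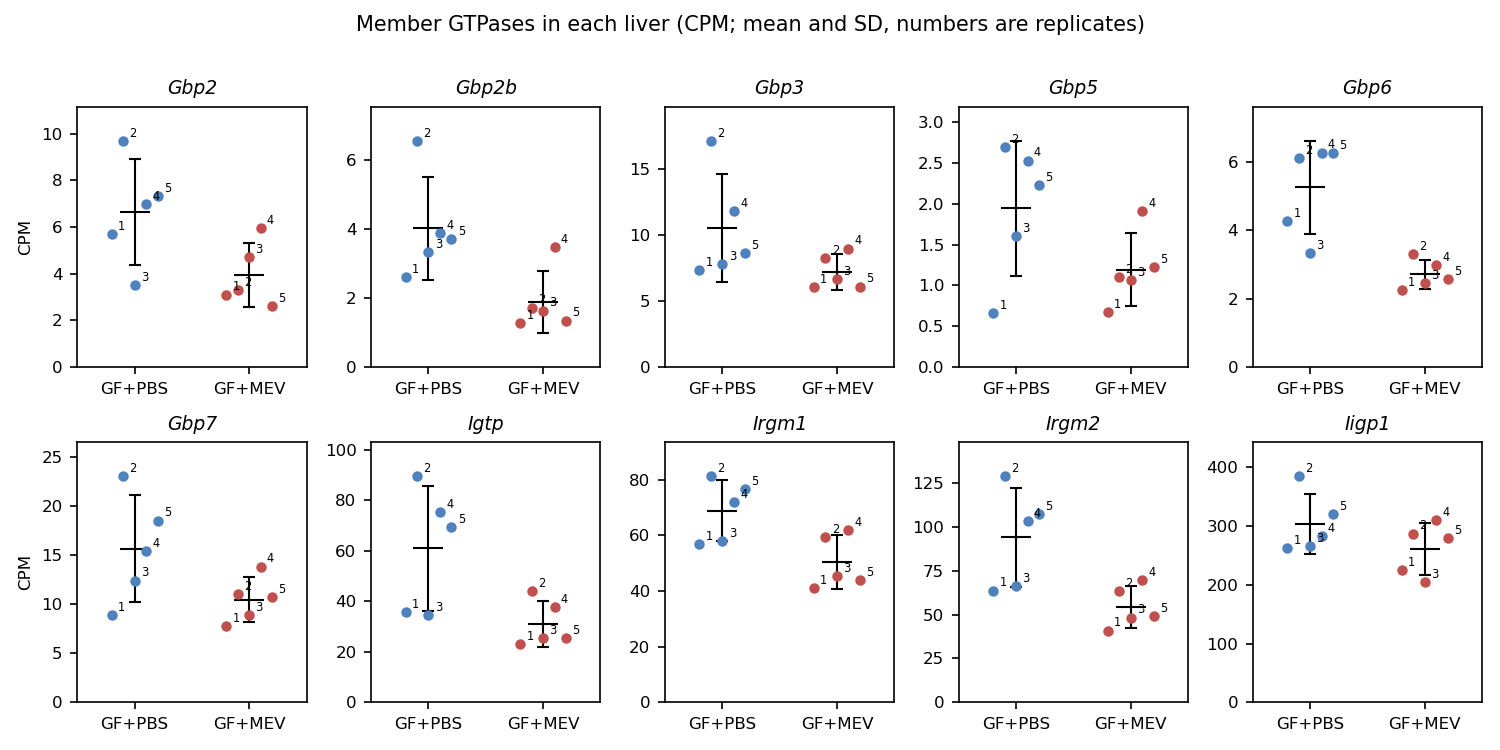
TMM-scaled CPM of the 10 members in each liver (points, numbered by replicate), with mean and SD of the 5 livers of a group in black and the y axes starting at 0. GF+PBS replicate 2 was the highest of the 10 livers in 9 panels, and only *Gbp6* had no overlap between the groups.

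Per length of transcript, the IRGs were far more abundant than the GBPs. On the RPKM scale (CPM per kilobase of exon), GF+PBS livers held 52.1 ± 8.8 of *Iigp1*, 30.1 ± 12 of *Igtp*, 25.4 ± 7.6 of *Irgm2* and 11.9 ± 1.9 of *Irgm1* (SD, n = 5). The GBPs followed at 3.23 ± 1.2 for *Gbp3*, 2.79 ± 0.98 for *Gbp7*, 2.64 ± 0.90 for *Gbp2*, 1.42 ± 0.53 for *Gbp2b*, 0.881 ± 0.23 for *Gbp6* and 0.293 ± 0.12 for *Gbp5*. *Igtp* and *Irgm2* did not differ beyond their spread, nor did *Gbp3*, *Gbp7* and *Gbp2*. In GF+MEV livers the levels were 44.9 ± 7.6 for *Iigp1*, 15.4 ± 4.5 for *Igtp*, 14.7 ± 3.2 for *Irgm2*, 8.67 ± 1.7 for *Irgm1* and between 0.180 and 2.21 for the GBPs. *Iigp1* alone accounted for 53.1% of the summed CPM of the members in GF+PBS. The order did not hold for every other family gene. In GF+PBS livers *Gbp11* had a mean RPKM of 17.8, above *Irgm1*, and *Irgq* of 2.23, below *Gbp3*. *Gm4951* at 32.6 and *Ifi47* at 13.7 lay among the IRG members.

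The members varied together from liver to liver within each group. GF+PBS replicates 2, 4 and 5 lay above replicates 1 and 3 in all 10 members, by a ratio of means between 1.25 for *Iigp1* and 2.22 for *Igtp*. This split was not planned in advance, and the share of all genes that follow it was not computed. Replicates 1 and 3, and replicates 4 and 5, were also the alike pairs over the 300 genes above. Averaged over the members as log2 CPM centred on the 10 livers, the GF+PBS livers stood at -0.17, 0.87, -0.06, 0.51 and 0.50 for replicates 1 to 5, and the GF+MEV livers at -0.68, -0.18, -0.45, 0.11 and -0.47. Thus GF+MEV replicate 4 stood above GF+PBS replicates 1 and 3. It was the highest liver of its group in 8 members, and GF+MEV replicate 1 was the lowest of all 10 livers in 7. With GF+MEV replicate 4 left out, 6 members were called, *Gbp2* joining the 5.

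**Figure D3:**
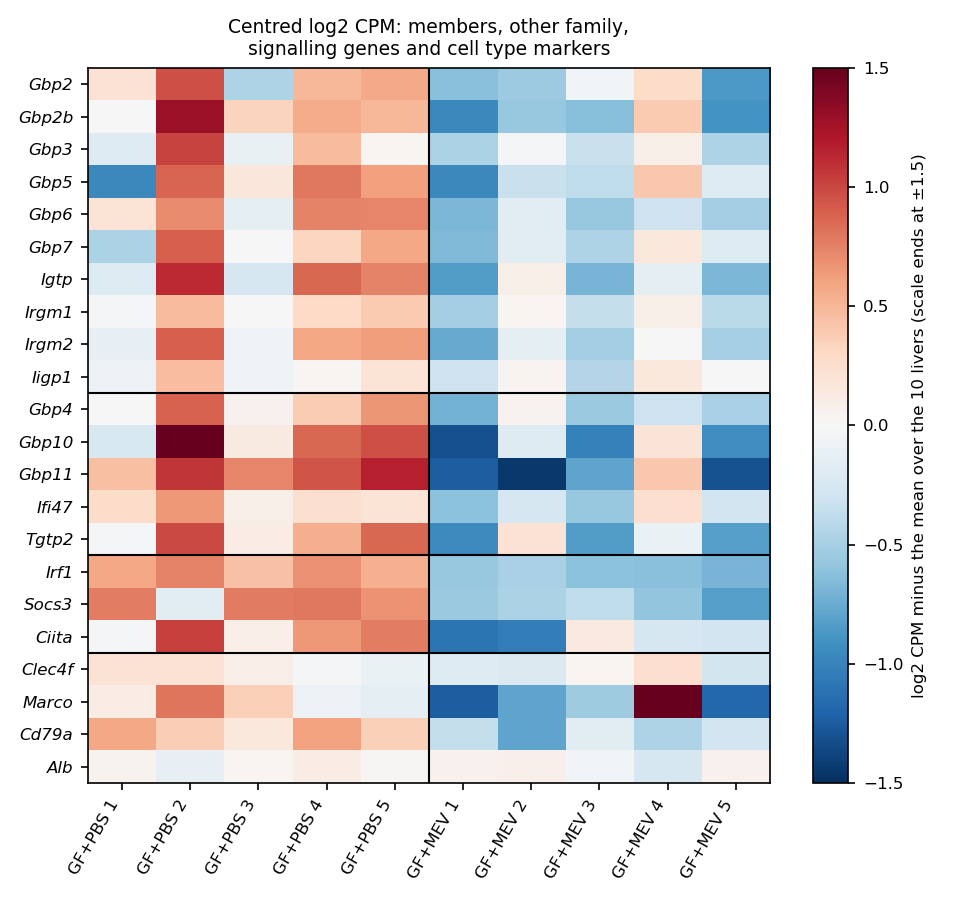
Centred log2 CPM (log2 CPM minus the mean of the 10 livers, colour scale ending at 1.5 either side of 0) in each liver for the members, 5 other family GTPases, 3 signalling genes and 4 cell type markers, separated by black lines. Among members, GF+PBS replicates 2, 4 and 5 are the reddest columns and GF+MEV replicate 1 the bluest, whereas *Irf1* splits cleanly by group.

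Other genes of the same GTPase families were also lower in part. Of 25 further GBP, IRG and related dynamin-like genes listed, 17 were tested, 5 fell, 1 rose and 11 were not called. Over all tested genes 3.52% fell and 4.12% rose. The median log2 fold change was -0.56 in this list against 0.00 over all genes. On chromosome 5, *Gbp11*, annotated as a polymorphic pseudogene, fell most, from 35.1, 54.1, 42.7, 49.7 and 57.9 CPM in GF+PBS to 10.9, 9.38, 14.8, 34.0 and 10.3 CPM in GF+MEV (log2 fold change -1.58, 95% interval -2.20 to -0.96, edgeR adjusted p = 0.00326). Its groups did not overlap, but GF+MEV replicate 4 came close to the lowest GF+PBS liver. *Gbp10*, which shares 70.9% of its transcript stretches mainly with *Gm43302* and *Gbp6*, fell by 1.34 on the log2 scale (edgeR adjusted p = 0.0219) and *Gbp4* by 0.84 (edgeR adjusted p = 0.0127). *Gbp8* (log2 fold change -0.62, edgeR adjusted p = 0.062) and *Gbp9* (-0.16, edgeR adjusted p = 0.558) were not called.

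On the IRG side, the effectors *Ifi47* (Irgd) and *Tgtp2* (Irgb6) fell, with log2 fold changes of -0.56 (edgeR adjusted p = 0.0312) and -1.03 (edgeR adjusted p = 0.0303). *Tgtp1*, a near copy of *Tgtp2*, had a log2 fold change of -1.20 with an adjusted p of 0.0567 by edgeR, and the 2 genes share over 80% of their transcript stretches (83.3% of *Tgtp1* and 80.4% of *Tgtp2*), so the split between them is uncertain. *Gm12250* (-1.23, edgeR adjusted p = 0.051), *Gm4951* (-0.29, edgeR adjusted p = 0.0546), *Gm5431* (-0.90, edgeR adjusted p = 0.125) and *9930111J21Rik2* (-0.56, edgeR adjusted p = 0.449) were not called. *F830016B08Rik*, 73011 bases from *Iigp1*, pointed the other way without being called (0.58, edgeR adjusted p = 0.28). *Irgq*, which lacks the interferon response of its relatives, showed 10.8 to 17.6 CPM in GF+PBS and 12.2 to 15.7 CPM in GF+MEV.

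The atlastins are dynamin-like GTPases that fuse endoplasmic reticulum membranes and are not known for induction by interferon. *Atl2* rose in GF+MEV, from 81.1 to 98.8 CPM in GF+PBS to 110 to 129 CPM (log2 fold change 0.42, 95% interval 0.28 to 0.57, edgeR adjusted p = 0.00128), without overlap, as 3.94% of all tested genes were in this direction. *Atl1* (-0.27, edgeR adjusted p = 0.488) and *Atl3* (0.00, edgeR adjusted p = 0.986) were not called. The count of 6 called in this list became 3 without GF+MEV replicate 1, 3 or 5 or without GF+PBS replicate 4, 4 without GF+PBS replicate 2, 4 with the alike livers summed, and 10 without GF+MEV replicate 4. Over the alternatives the edgeR adjusted p reached 0.0623 for *Gbp10*, 0.0829 for *Ifi47* and 0.0819 for *Tgtp2*, each time without GF+MEV replicate 3, while *Gbp4*, *Gbp11* and *Atl2* passed in all. *Irgc1*, *Gm4841*, *Gm12185*, *9930111J21Rik1*, *Gvin1*, *Gm4070*, *Gm17757* and *Gm8989* were not among the tested genes.

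**Figure D4:**
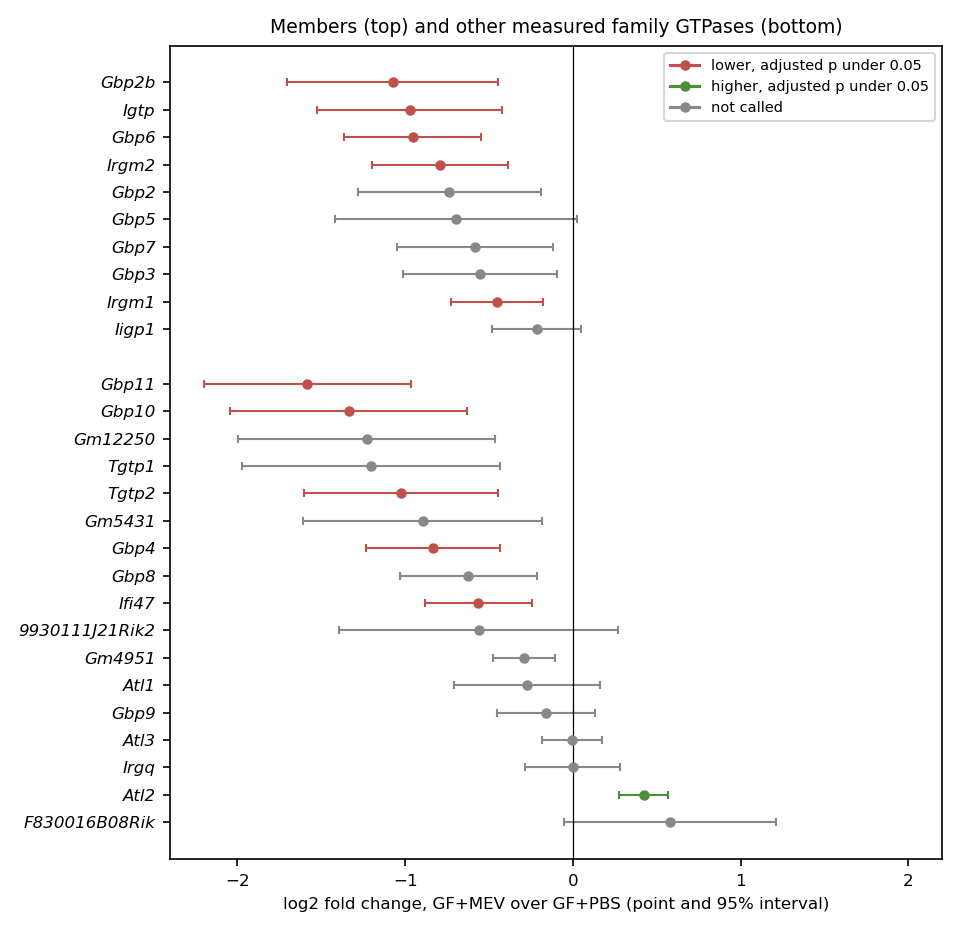
Log2 fold change of GF+MEV over GF+PBS (points) with 95% interval (bars) from the edgeR fit, for the 10 members and for 17 other family GTPases, coloured by whether the adjusted p was under 0.05. All 10 members lie left of 0, 8 of them with the whole interval, and *Atl2* is the 1 called gene to the right.

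The steps between interferon gamma and these genes were examined next, from a list of 26 receptor, kinase, factor and feedback genes. Of these 23 were tested, 3 fell and 1 rose, where 3.52% of all tested genes fell and 4.12% rose. *Irf1*, the factor through which much of the GTPase response runs, had the clearest difference of the pathway. It was measured at 16.5, 17.5, 16.03, 15.8 and 15.1 CPM in GF+MEV and 36.7, 41.1, 33.4, 39.6 and 35.7 CPM in GF+PBS. The groups were tight and far apart, and GF+MEV replicate 4 and GF+PBS replicates 1 and 3 did not stand apart in it as they did in the members. It was 2.31-fold higher in GF+PBS, a log2 fold change of -1.21 (95% interval -1.36 to -1.05, edgeR adjusted p = 9.28e-08). Exons of the opposite-strand gene *Gm17334* cover 3.4% of its exon length, and whether counting used strand was not given in the sources used here.

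The receptor chains and kinases had narrow intervals around 0. The log2 fold change was -0.03 for *Ifngr1* (95% interval -0.19 to 0.13), 0.05 for *Ifngr2* (-0.11 to 0.21), 0.09 for *Jak1* (-0.05 to 0.23) and -0.13 for *Jak2* (-0.31 to 0.05).

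*Socs3*, a feedback inhibitor of JAK kinases best known downstream of interleukin-6, fell from 26.0, 13.6, 26.3, 26.4 and 24.4 CPM in GF+PBS to 10.3, 10.9, 11.7, 10.05 and 8.55 CPM in GF+MEV (log2 fold change -1.18, 95% interval -1.52 to -0.84, edgeR adjusted p = 0.000275). GF+PBS replicate 2, the highest liver for 9 members, was the lowest of its group for *Socs3*. *Ciita*, the master regulator of MHC class II genes, fell by 1.01 on the log2 scale (edgeR adjusted p = 0.039), with GF+PBS replicates 1 and 3 at 1.78 and 1.96 CPM inside the GF+MEV range of 0.793 to 2.03 CPM. *Irf2*, which competes with IRF1 for its sites, rose by a log2 fold change of 0.36 (95% interval 0.19 to 0.53, edgeR adjusted p = 0.0134) without overlap. *Stat2* (-0.19, edgeR adjusted p = 0.276), *Stat3* (0.24, edgeR adjusted p = 0.0532), *Irf8* (-0.29, edgeR adjusted p = 0.296) and *Irf9* (-0.24, edgeR adjusted p = 0.178) were not called. *Ifng* itself, *Socs1* and *Batf2* were not among the tested genes. With the alike GF+PBS livers summed, 2 of the list were called. *Irf1* and *Socs3* passed in every alternative and *Irf2* in all but that one (edgeR adjusted p = 0.054), while *Ciita* was lost in 9 of 18, with an adjusted p of up to 0.088 without GF+MEV replicate 1.

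Other genes that interferon gamma induces were lower in part. Of 34 listed, 32 were tested, 9 fell and none rose, where 3.52% of all tested genes fell and 4.12% rose. None rose by edgeR, DESeq2 or limma-voom, and 0 had an unadjusted edgeR p under 0.05 in that direction. The median log2 fold change was -0.16. The count of 9 was 5 without GF+MEV replicate 1 or without GF+PBS replicate 4, 6 without GF+MEV replicate 5, without GF+PBS replicate 2 or 5, or with the alike livers summed. The genes *Cxcl9*, *Cxcl10* and *Cxcl11*, of the chemokine family that draws CXCR3-bearing T cells, each fell. *Cxcl10* was at 3.22, 5.66, 2.02, 4.04 and 4.14 CPM in GF+PBS and 2.07, 0.966, 1.54, 1.85 and 0.900 CPM in GF+MEV (log2 fold change -1.36, edgeR adjusted p = 0.00735), so that only GF+PBS replicate 3 fell inside the GF+MEV range. *Cxcl11* did not overlap, at 1.79 to 2.80 CPM against 0.561 to 1.40 CPM (log2 fold change -1.33, edgeR adjusted p = 0.00201). *Cxcl9*, at 11.5 to 22.98 CPM against 5.67 to 14.4 CPM, had GF+MEV replicate 4 inside the GF+PBS range (log2 fold change -0.80, edgeR adjusted p = 0.0477), and its call was lost in 9 of 18 alternatives, with an adjusted p of up to 0.103 without GF+MEV replicate 5. *Cxcl10* and *Cxcl11* passed in all 18. *Cxcl11* is annotated as a polymorphic pseudogene, and the opposite-strand pseudogene *Gm2673* covers 41.7% of its exon length, so its counts may include reads of that gene. For *Cxcl10* an opposite-strand overlap with *Art3* covers 5.91%.

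*Cd274*, the gene of the checkpoint ligand PD-L1, fell from 2.50 to 4.31 CPM in GF+PBS to 1.09 to 2.30 CPM (log2 fold change -0.93, edgeR adjusted p = 0.0205). The MHC class II genes *Cd74* (-0.56), *H2-Aa* (-0.61), *H2-Ab1* (-0.62) and *H2-Eb1* (-0.55) also fell on the log2 scale (edgeR adjusted p of 0.0162, 0.0122, 0.0158 and 0.0389). Of these, *Cd274*, which an opposite-strand gene covers over 14.1% of its exon length, was lost without GF+MEV replicate 1 (edgeR adjusted p = 0.0524) without GF+PBS replicate 4 and with the alike livers summed, and *H2-Eb1* without GF+MEV replicate 1, 3 or 5 or GF+PBS replicate 2, 4 or 5 (up to 0.0918) and with those livers summed. These genes are made by B cells and other antigen-presenting cells, and the B cell markers *Cd79a* (-0.87, edgeR adjusted p = 0.00715) and *Cd79b* (-0.76, edgeR adjusted p = 0.0316) fell as well. The 8 tested B cell markers summed to 14.3 to 24.4 CPM in GF+MEV and 22.7 to 31.6 CPM in GF+PBS. Of the 8, 2 were called, both lower, where 3.52% of all tested genes fell. *Cd79a* passed in all alternatives, *Cd79b* was lost without GF+MEV replicate 2, 4 or 5 or GF+PBS replicate 3, 4 or 5 (edgeR adjusted p up to 0.0882), and their part in the result was not tested.

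In the MHC class I pathway the immunoproteasome subunit *Psmb10* fell (-0.35, edgeR adjusted p = 0.0296), a call lost without GF+MEV replicate 1, 4 or 5 or GF+PBS replicate 2, 4 or 5 (up to 0.0791). Its partner *Psmb9* (-0.47, edgeR adjusted p = 0.0718) and the peptide transporter *Tap1* (-0.47, edgeR adjusted p = 0.0729) were not called, though both passed by DESeq2 and without GF+PBS replicate 1 or 3, and *Tap1* without GF+MEV replicate 2. *B2m* (-0.10, 95% interval -0.27 to 0.08) and *H2-K1* (-0.05, 95% interval -0.18 to 0.08), the abundant class I genes, had intervals that excluded a change of the size seen in *Igtp*. *Ido1* and *Ubd* were not among the tested genes.

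**Figure D5:**
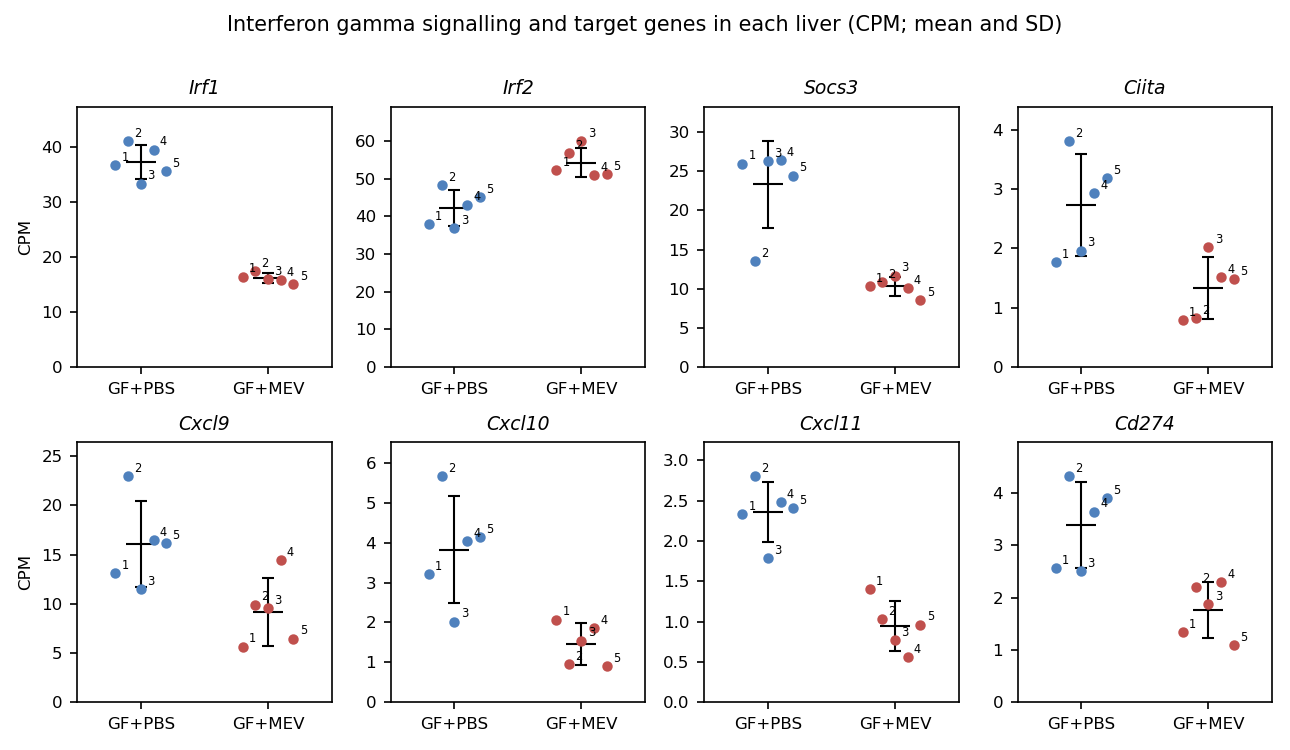
CPM of 8 interferon gamma signalling and target genes in each liver (points, numbered by replicate), with mean and SD of 5 livers in black and y axes from 0. *Irf1*, *Irf2*, *Socs3*, *Cxcl11* and *Cd274* separate the groups, while *Ciita* has GF+PBS replicates 1 and 3 inside the GF+MEV range.

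Genes of the type I interferon response gave no call. All 25 listed antiviral genes were tested and 0 were called by edgeR, by DESeq2 or by limma-voom, while 7 had an unadjusted edgeR p under 0.05, all lower in GF+MEV. The unadjusted share of lower genes over the whole table was 10.4%. The median log2 fold change was -0.12. *Isg15*, a ubiquitin-like modifier, had -0.37 (95% interval -0.66 to -0.09, edgeR adjusted p = 0.112) and *Ifit1*, a sensor of foreign RNA caps, -0.37 (95% interval -0.70 to -0.04, edgeR adjusted p = 0.178). Whether the members and this list differ in response was not tested.

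Genes for proteins that GBPs and IRGs work with were read next. Of 19 listed autophagy, ubiquitin and prenylation partners, all were tested, 1 fell and 1 rose, where 7.64% of all tested genes were called in either direction. *Map1lc3b*, which encodes an LC3 protein of autophagy, rose from 129 to 138 CPM in GF+PBS to 165 to 175 CPM (log2 fold change 0.37, 95% interval 0.27 to 0.47, edgeR adjusted p = 0.000171), without overlap. *Trim21*, an interferon-induced ubiquitin ligase and antibody receptor, fell from 7.66, 10.9, 9.998, 10.4 and 9.91 CPM in GF+PBS to 4.76, 5.11, 5.07, 5.95 and 6.36 CPM in GF+MEV (log2 fold change -0.84, 95% interval -1.10 to -0.59, edgeR adjusted p = 0.000407). Both held in every alternative fit. Of 12 inflammasome genes that act after GBPs, 8 were tested and 1 fell, *Il18bp*, the interferon-induced decoy of interleukin-18 (-0.37, edgeR adjusted p = 0.0268). That call was lost without GF+MEV replicate 1, 2 or 3, without GF+PBS replicate 2 or 3 and with the alike livers summed, at an edgeR adjusted p of up to 0.0667. *Casp4*, the gene of caspase-11, was at 0.579 to 1.24 CPM in GF+MEV and 0.707 to 1.34 CPM in GF+PBS (log2 fold change -0.38, 95% interval -0.93 to 0.18, edgeR adjusted p = 0.452), and *Gsdmd*, its pore-forming target, at 26.4 to 33.2 and 26.2 to 31.7 CPM (0.06, 95% interval -0.10 to 0.22). *Nlrp3*, *Nlrc4*, *Pycard* and *Il1b* were not among the tested genes.

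Markers of the liver's cell types were set beside these results. Of 18 T and NK cell markers, the usual sources of interferon gamma, 17 were not among the tested genes, defining markers such as *Cd3e*, *Cd8a* and *Ncr1* included, and *Ccl5* lay between 0.759 and 2.02 CPM in GF+MEV and between 1.17 and 1.61 CPM in GF+PBS. Of 12 Kupffer cell and macrophage markers none was called by edgeR, DESeq2 or limma-voom and none had an unadjusted edgeR p under 0.05. Their sum was 351, 336, 419, 614 and 335 CPM in GF+MEV and 515, 538, 479, 411 and 383 CPM in GF+PBS. GF+MEV replicate 4, the liver of its group with the highest level of 8 members, had the highest macrophage sum of all, and *Marco*, a scavenger receptor, was at 21.2 CPM there against 1.28 to 2.17 CPM in the other GF+MEV livers. Without that liver 4 of these markers fell, *Cd5l* (-0.56), *Lyz2* (-0.41), *Marco* (-1.19) and *Vsig4* (-0.44), with edgeR adjusted p of 0.0332, 0.0478, 0.00881 and 0.0455. In that fit 382 of all 12147 genes fell. In GF+PBS the sum was lowest in replicates 4 and 5, in which the members were high. The part of macrophage content in the members' levels was not tested.

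Of 10 endothelial markers, *Clec4g* fell (-0.48, edgeR adjusted p = 0.0214) and *Lyve1* rose (0.84, edgeR adjusted p = 0.0401), where 3.52% of all tested genes fell and 4.12% rose. The sum of the 10 was 188 to 293 CPM in GF+MEV and 224 to 291 CPM in GF+PBS. The hepatocyte genes *Cps1* (0.38, edgeR adjusted p = 0.0414) and *Ass1* (0.36, edgeR adjusted p = 0.0091), both of the urea cycle, rose, and the other 7 tested hepatocyte markers were not called. *Clec4g* was lost without GF+MEV replicate 2 or 5 or GF+PBS replicate 3 (edgeR adjusted p up to 0.0601), *Lyve1* without GF+MEV replicate 3 or 5 or GF+PBS replicate 3, 4 or 5 (up to 0.116) and *Cps1* without any liver but GF+MEV replicate 2 or GF+PBS replicate 5 (up to 0.105), while *Ass1* passed in all. Of 7 neutrophil markers 1 was tested, *Csf3r*, which was not called.

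Outside the members, the genes whose liver-to-liver pattern lay nearest to theirs were sought among the 11824 genes averaging 1 CPM or more. Likeness was the root mean square difference, on the log2 scale over the 10 livers, between a gene's centred profile and the mean profile of the members, and a flat profile would score 0.472. The 5 nearest were *H2-Eb1* at 0.169, the pseudogene *Gm8995* at 0.175, *Gbp4* at 0.183, *Tap1* at 0.185 and *H2-Aa* at 0.193. *Gm8995* was at 2.80 ± 0.774 CPM (SD, n = 5) in GF+MEV and 4.01 ± 1.08 CPM (SD, n = 5) in GF+PBS and was not called (-0.51, edgeR adjusted p = 0.184). *Ifi47* ranked 13, while *Gbp11* ranked 11100 with a difference of 0.67. The score counts the size of a swing as well as its direction. A gene that moves with the members but more strongly therefore ranks lower. The fall of *Gbp11* (log2 fold change -1.58) was larger than that of any member. Its profile also differed, with GF+PBS replicates 1 and 3 at 0.45 and 0.73 on the centred log2 scale. The members averaged -0.17 and -0.06 in those livers. How much the size and the pattern each add to its rank was not tested.

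Most members lie in clusters on chromosomes 3 and 11, and genes within 100 kb of a member were read for comparison. Of 14 other protein-coding neighbours tested, 2 were called, both lower in GF+MEV. Over all tested genes 7.64% were called in either direction. The limit to genes annotated as protein-coding leaves out genes that the annotation types as pseudogenes. Among them are *Gbp11* beside *Gbp6* and *Gm12250* beside *Igtp*, whose values are given above. The 2 called were *Gbp10*, 31169 bases from *Gbp6*, and *Cnot8*, a subunit of the CCR4-NOT deadenylase complex, 80962 bases from *Igtp* (-0.24, edgeR adjusted p = 0.0276). *Kyat3*, 63043 bases from *Gbp2*, had a log2 fold change of 0.01. *Trim7*, 9759 bases from *Irgm1*, was at 0.13 (edgeR adjusted p = 0.598).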

How the data were processed

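Liver RNA of 10 GF mice was sequenced by the authors (NEBNext libraries, 1 per liver), aligned to GRCm38 with STAR 2.7.3a and counted per gene with HTSeq, after bcl2fastq 2.17. HTSeq's version, strand setting and handling of multi-mapped reads were not given in the sources used here. The authors deposited raw counts for 12148 genes, without normalization, and 5 columns that match no sample were not used. The paper states that genes under 20 counts across samples were removed before its analysis. The alternative with no filter tested 12148 genes against 12147, so it could hardly differ from the main fit. Nearly all genes named as not tested were missing from the deposited counts. Genes with at least 20 summed counts (12147) were tested with edgeR 4.0.16 (R 4.3.3; TMM, quasi-likelihood test, treatment group alone, Benjamini-Hochberg threshold 0.05). Intervals are 95% from that fit. Log2 CPM used a prior count of 2, and RPKM the union exon length of GENCODE gene models. The fit was tested on simulated data. Alternatives were DESeq2 1.42.0, limma-voom (limma 3.58.1), RLE and upper-quartile scaling, no filter, at least 10 counts in every library, a replicate block, alike GF+PBS livers summed, and each liver left out.

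Members and lists were chosen with earlier results of these data known. Genes were named by rule: every member and tested family gene, called genes and receptor, kinase and factor genes of the lists, the 5 nearest profiles and called neighbours. *Atl2*'s relatives, markers and genes such as *Isg15*, *B2m*, *Tap1* and *Trim7* named beyond that rule were chosen after their values were seen. Same-numbered mice were not paired (correlations of deviations from -0.20 to 0.19). Livers are separate mice per the labels. Of the signalling list, 1 gene is not reported here by name.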

Additional observations from a re-analysis of the deposited data

Results flagged for a closer look

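Within groups of 5 livers, 5 of 114 group and gene combinations held a liver far from the other 4 by Dixon's test, and chance gives about 1 in 20, so 5.7 would be looked for among as many. GF+MEV replicate 4 was the liver in 4 of them. It stood at 3.48 CPM for *Gbp2b* (the others 1.28 to 1.72), 34.0 CPM for *Gbp11* (9.38 to 14.8), 17.6 CPM for *Ifngr1* (15.4 to 15.8) and 21.2 CPM for *Marco* (1.28 to 2.17). The other was GF+PBS replicate 2, at 13.6 CPM for *Socs3* (24.4 to 26.4).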

How the results depend on the processing

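All 10 members kept a log2 fold change under 0 in all 18 alternatives. *Gbp6* stayed past the threshold in each of them and *Irgm2* in 17, its exception being the fit without GF+MEV replicate 3 (adjusted p = 0.0513). The count of members called was 6 by DESeq2, 7 with the replicate block and 3 with the alike GF+PBS livers summed, and 1 to 6 with 1 liver left out. The replicate numbers do not pair the mice, so the replicate block is given for completeness. With the alike livers summed, counts called were 561 for all genes (against 928), 2 for signalling genes, 0 for inflammasome genes, 1 for hepatocyte markers, 1 for B cell markers and 0 for endothelial markers. With the replicate block they were 0 for inflammasome genes, 1 for hepatocyte markers, 1 for B cell markers and 1 for endothelial markers, and *Marco* reversed to -0.25. Inflammasome genes called were 2 by DESeq2, RLE scaling, upper-quartile scaling and the minimum of 10 counts. Upper-quartile scaling gave 10 other family GTPases and 1 hepatocyte marker. *Marco* reversed to -0.39 by limma-voom and to -1.19 without GF+MEV replicate 4, *Ifngr1* to 0.0029 without GF+PBS replicate 2 and *Ifngr2* to -0.0043 without GF+PBS replicate 4. With 1 liver left out, these log2 fold changes ran from -1.19 to 0.81 for *Marco*, from -0.0699 to 0.0029 for *Ifngr1* and from -0.0043 to 0.0799 for *Ifngr2*. With 1 liver left out, counts ranged from 3 to 10 for other family GTPases, 3 to 5 for signalling genes, 5 to 11 for other interferon gamma induced genes, 0 to 1 for inflammasome genes, 1 to 2 for hepatocyte markers, 0 to 4 for macrophage markers, 1 to 3 for B cell markers, 0 to 2 for endothelial markers and 696 to 926 for all genes. The causes were not tested. GBP levels rest on few counts (11 to 50 per library for *Gbp5*), which limits their precision.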
